A study of Mus musculus with 12 samples.

Results

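The genes described here encode inflammatory interleukins, their inhibitors and the chemokines that attract neutrophils. They are Il1a, Il1b, Il1rn, Il6, Il10, Il18, Il18bp, Cxcl1, Cxcl2 and Cxcl3, 10 genes selected by symbol from the 24421 in the count table, and all 10 were detected in each of the 12 libraries and passed the filter on low counts. Messenger RNA was sequenced from live cells sorted from mouse tibialis anterior muscle as positive for CD45 and CD11B and negative for LY6G and SIGLECF, and the labels call these cells macrophages. The muscle of all groups had been injured with notexin, a myotoxic phospholipase from snake venom, and cells were collected on day 5 after an enzymatic digestion of the tissue. The 4 groups of 3 libraries combined 2 Ifngr1 genotypes with 2 antibodies given daily by intraperitoneal injection. They were Ifngr1 wt/null with an isotype antibody, Ifngr1 wt/null with a neutralizing antibody to TNF, Ifngr1 null/null with the isotype antibody, and Ifngr1 null/null with the antibody to TNF. Ifngr1 codes for the chain with which the receptor of interferon gamma (IFN-γ) binds its ligand, and the wt/null controls also carried 1 null allele. The sources used here give neither strain, age nor the structure of the null allele. They do not say that each library came from a separate mouse, so p-values measure the spread between these libraries, which may be technical. The design addresses how TNF and IFN-γ signals bear, alone and together, on the state of macrophages in regenerating muscle.

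Interleukin 1 alpha (IL-1α) and interleukin 1 beta (IL-1β) act through the same receptor and amplify local inflammation, and the receptor antagonist encoded by Il1rn blocks that receptor without activating it. IL-1β and IL-18 are made as inactive precursors that caspase-1 cuts in the inflammasome, so their transcripts alone do not measure the active cytokine. IL-18 induces IFN-γ in lymphocytes, and the secreted protein encoded by Il18bp neutralizes it. IL-6 is made early after muscle injury and also acts on muscle stem cells, while IL-10 restrains macrophage activation and accompanies the switch to a reparative state. CXCL1, CXCL2 and CXCL3 attract neutrophils through the receptor CXCR2. In macrophages many of these genes are induced through NF-κB, to which the TNF receptors signal.

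The neutrophil chemokines share a glutamate-leucine-arginine (ELR) motif just before their first cysteines, which binding to CXCR2 requires. The 30 bases of coding sequence around it, from GENCODE M21 transcripts of the 3 genes, are shown with the codons of the motif in capitals because they show how alike these genes are.
Cxcl1: gccaatGAGCTGCGCtgtcagtgcctgcag
Cxcl2: gccagtGAACTGCGCtgtcaatgcctgaag
Cxcl3: gccagtGAGCTGCGCtgtcagtgcctgaac
Cxcl1 and Cxcl2 were identical at 26 of these 30 bases, Cxcl1 and Cxcl3 at 27, and Cxcl2 and Cxcl3 at 27. Over whole transcripts, 61 stretches of 50 bases were common to Cxcl2 and Cxcl3, which was 6.31% of those in Cxcl3 and 3.37% of those in Cxcl2, while Cxcl1 shared 0 with any other gene. Read pairs wholly within those stretches cannot be assigned to 1 of the 2 genes, and how they were counted is not given in the sources used here.

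The 3 genes lie on chromosome 5 of the GRCm38 build, Cxcl3 from 90786101 to 90788093, Cxcl1 from 90891245 to 90893121 and Cxcl2 from 90903899 to 90905938. Their promoters, from 250 bases before to 50 after the start site (RefSeq, GRCm38.p6, plus strand), are shown because the levels of Cxcl3 across libraries departed from those of its neighbours. Capitals mark matches to a kappaB-type motif, which binds NF-κB and was searched as GGGA, any 3 bases and TCC on both strands; the match on each strand overlaps the other.
Cxcl1, chr5:90890995-90891294: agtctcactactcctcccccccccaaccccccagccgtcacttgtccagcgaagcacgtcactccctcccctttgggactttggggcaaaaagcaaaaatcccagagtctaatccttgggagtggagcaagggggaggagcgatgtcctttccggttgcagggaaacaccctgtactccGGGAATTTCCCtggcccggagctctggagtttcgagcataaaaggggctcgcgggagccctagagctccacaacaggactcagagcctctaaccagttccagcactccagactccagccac
Cxcl2, chr5:90903649-90903948: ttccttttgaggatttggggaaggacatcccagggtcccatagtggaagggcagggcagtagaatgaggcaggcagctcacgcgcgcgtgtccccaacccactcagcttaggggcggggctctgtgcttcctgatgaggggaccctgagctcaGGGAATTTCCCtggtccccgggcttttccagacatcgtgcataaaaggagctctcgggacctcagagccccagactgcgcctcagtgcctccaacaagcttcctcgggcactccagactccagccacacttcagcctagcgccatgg
Cxcl3, chr5:90785851-90786150: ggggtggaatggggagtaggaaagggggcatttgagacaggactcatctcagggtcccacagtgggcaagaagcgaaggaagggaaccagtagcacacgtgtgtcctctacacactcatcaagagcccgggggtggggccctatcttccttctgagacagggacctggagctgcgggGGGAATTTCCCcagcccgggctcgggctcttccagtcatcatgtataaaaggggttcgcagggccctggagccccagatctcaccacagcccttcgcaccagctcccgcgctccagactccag
Each promoter held the same run of letters, from -71 to -61 in Cxcl1, from -97 to -87 in Cxcl2 and from -73 to -63 in Cxcl3, counted with the start site as 0. A match to the motif was present in 4.59% of the 32851 promoter entries, and Il6 held another from -44 to -34. Promoter entries were found for 9 of the 10 genes, Il10 being the exception. These are matches of letters, and binding was not measured.

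Il1a (chromosome 2, 129299609 to 129310186) and Il1b (chromosome 2, 129364569 to 129371164) lie close together, and Il1rn is on the same chromosome (24336860 to 24351491). Il6 is on chromosome 5 (30013114 to 30019975), Il10 on chromosome 1 (131019845 to 131024970), Il18 on chromosome 9 (50554700 to 50581841) and Il18bp on chromosome 7 (102015074 to 102018232). Exons of Il1a, Il1b and Il18bp overlap those of Gm14023, Il1bos and Numa1 on the other strand. The kit was stranded, but the sources used here do not give the strand setting of the counting, so reads of these partners may be included. The pentamer ATTTA, found in the AU-rich elements that shorten the life of cytokine messages, occurred 7 times in the transcript of Cxcl1, 11 in Cxcl2, 7 in Il10, 5 in Cxcl3 and 10 in Il6. At 7.35, 5.92, 5.34, 4.92 and 4.27 per kb these densities were reached by 0.0823%, 0.187%, 0.32%, 0.503% and 0.955% of 21877 coding genes. Il1b at 2.95 per kb was reached by 5.49%, Il1a at 1.52 by 26.5%, Il18 at 1.13 by 38% and Il18bp at 0.77 by 52%, and Il1rn had 0.

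Depth was 23.2 to 29.9 M counts a library. Ifngr1 stood at 226 to 250.5 CPM (counts per M counts, scaled by TMM) in the 6 wt/null libraries and at 83.3 to 119 CPM in the 6 null/null libraries, so the labels of genotype held in each library. Macrophage and sort genes summed to 23142 to 29596 CPM. Neutrophil markers, 10 of 11 of which were in the table, summed to 6.57 to 17.2 CPM in 11 libraries and to 52.1 CPM in null/null isotype replicate 1. Siglecf was at 5.00 to 11.4 CPM. Single neutrophil markers differed, as Mpo was at 0 in 9 libraries and at most at 0.122 CPM, while Mmp8 stood at 3.71 to 10.7 CPM. S100a8, S100a9 and Ngp reached 10.7, 11.7 and 10.7 CPM in null/null isotype. Cxcr2, the receptor of the 3 chemokines, was at most at 0.758 CPM. Libraries wt/null anti-TNF replicate 2 and null/null anti-TNF replicate 1 stood apart from the other 10. There the dendritic cell markers, 6 of 6 in the table, summed to 317 and 271 CPM against 78.6 to 131 CPM, and Flt3 was at 87.3 and 89.3 CPM against 20.4 to 32.1 CPM. Endothelial markers summed there to 49.7 and 44.8 CPM against 18.7 to 37.7 CPM, and fibroblast markers to 335 and 243 CPM against 512 to 1260 CPM. Single genes of these lists differed, and Col1a1 and Col3a1 made up most of the fibroblast sums. Dcn stood at 17.2 to 32.6 CPM in wt/null anti-TNF and 13.6 to 34.4 CPM in null/null anti-TNF. Under isotype Dcn stood at 18.8 to 26.2 CPM in wt/null and 16.4 to 18.8 CPM in null/null. Ptprb of the endothelial list was highest, at 5.16 CPM, in wt/null isotype. The 2 libraries that stand apart also held the most Ifng, 2.91 and 1.48 CPM, while the others held up to 0.427 CPM. Their T and NK cell markers summed to 175 and 129 CPM, inside the 98.4 to 203 CPM of the others, with Cd4 the most abundant. By group, Nkg7 reached 3.68 CPM in wt/null anti-TNF and 2.65 CPM in null/null anti-TNF, against 0.834 and 0.270 CPM under isotype. Gzmb reached 2.70 and 2.12 CPM, against 0.516 and 0.366 CPM. Cd4 reached 145 and 146 CPM, against 130 and 195 CPM. In such bulk samples a change in cell types and a change of RNA per cell cannot be told apart. The titles begin with 40 or 46, with 1 library titled 46 in each group, and the meaning is not given in the sources used here.

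Il1b was the most abundant of the 10 genes per length of transcript, at 235 ± 118 CPM per kb (mean ± SD over the 12 libraries). Il1rn came next at 66.3 ± 18.1 CPM per kb, then Cxcl2 at 34.2 ± 14.0, Il18bp at 27.4 ± 17.6, Il18 at 22.8 ± 3.43, Cxcl1 at 20.1 ± 10.5 and Il10 at 14.8 ± 7.51. Il1a at 2.69 ± 2.03, Cxcl3 at 0.887 ± 0.597 and Il6 at 0.581 ± 0.207 CPM per kb were far lower. From Cxcl2 down to Il10, each step between neighbours was smaller than the SD of both genes, except that the step from Il18bp to Il18 exceeded the SD of Il18. By the ratio of the highest to the lowest library, Il1a ranged over 8.92-fold, Cxcl3 over 8.04-fold, Il18bp over 5.84-fold and Cxcl1 over 5.65-fold, and Il18 least, over 1.58-fold. By the SD of log2 CPM, Cxcl3 varied most, above 97.8% of tested genes, then Il1a above 97.2% and Cxcl1 above 95.2%, and Il18 above 53.8%.

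Across the 8 comparisons of the design, 0 of the 10 genes were called by edgeR at an adjusted p below 0.05, and DESeq2 also called 0. Of all 12981 tested genes edgeR called 1, or 0.0077%, between the genotypes under isotype, between the genotypes under anti-TNF, between both perturbations and neither, and between genotypes averaged over antibody. It called 0 (0%) in the comparisons of antibody and in the interaction. At an unadjusted p below 0.05, 4 of the 10 genes differed with the antibody in wt/null mice, against a background of 4.48% of tested genes. The count was 0 with the antibody in null/null mice, where the background was 3.48%. It was 0 between genotypes under isotype (background 1.8%) and 1 between genotypes under anti-TNF (background 1.98%). Averaged over genotype, the antibody comparison held 2 of the 10 genes (background 7.31%), and averaged over antibody the genotype comparison held 0 (background 2.46%). Both perturbations against neither held 1 (background 2.13%) and the interaction 0 (background 1.51%). DESeq2 gave the same counts except for 1 in the genotype average.

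**Figure D1:**
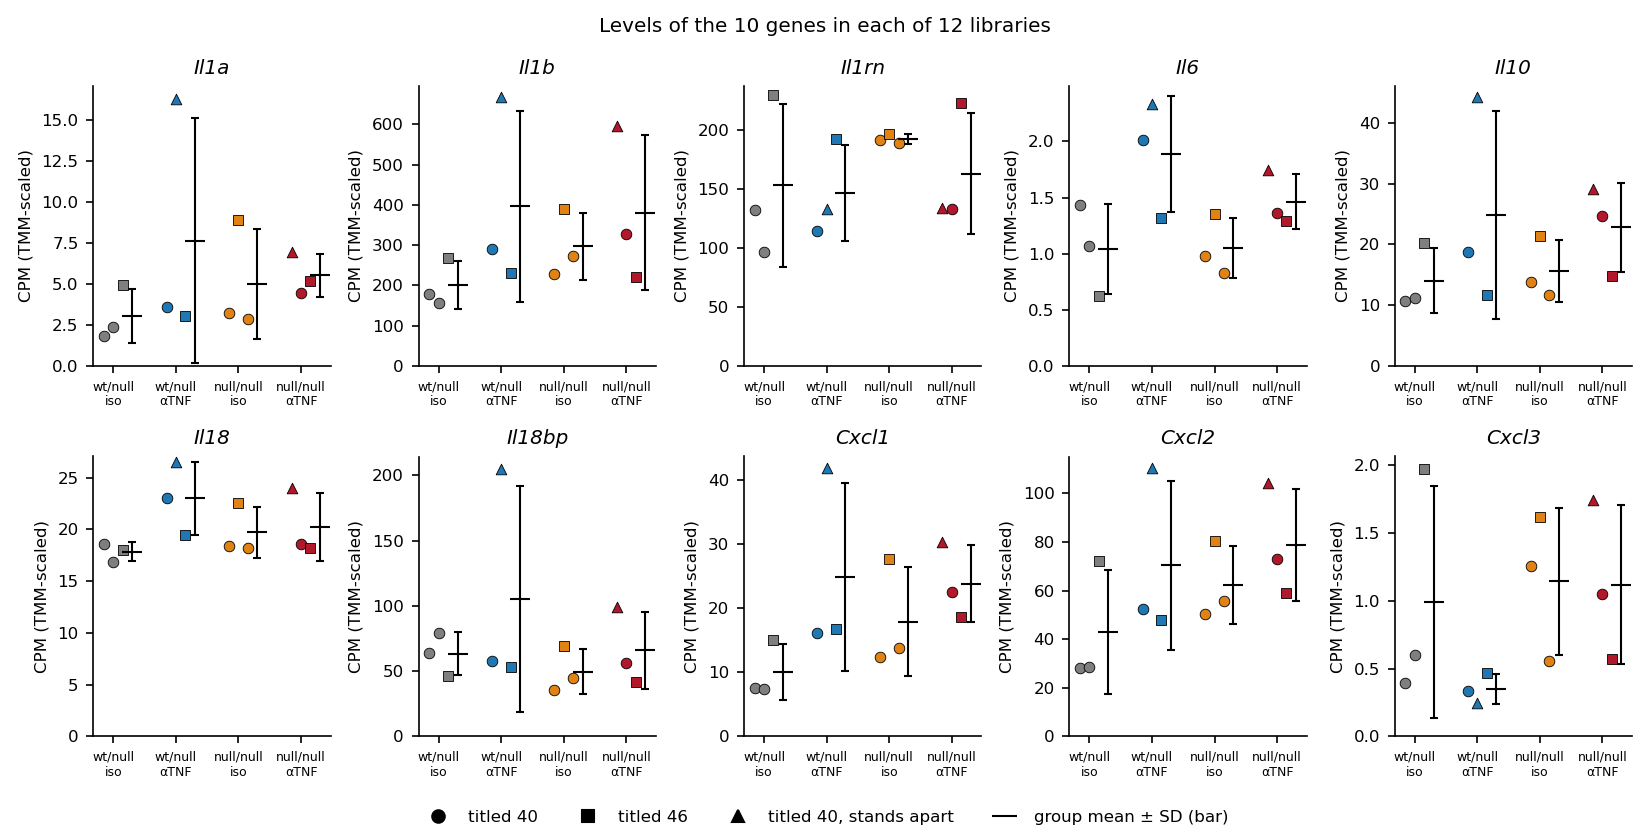
TMM-scaled CPM (vertical axes, from 0) of the 10 genes in each library of the 4 groups (horizontal axes), with the mean and SD of the 3 libraries beside the points. Circles are libraries titled 40, squares those titled 46 and triangles the 2 that stand apart. Both of these held the highest values of their group for 8 of the 10 genes, against 23.5% of tested genes.

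Levels of the pro-inflammatory IL-1 transcripts differed widely among the libraries of a group. In replicate order, Il1b stood at 177, 156 and 268 CPM in wt/null isotype and at 291, 669 and 230.1 CPM in wt/null anti-TNF. In null/null it stood at 229, 389 and 272 CPM under isotype and at 595, 328 and 219.9 CPM under anti-TNF. The highest values were those of the 2 libraries that stand apart, and every pair of groups overlapped. Il1a stood at 1.83, 2.39 and 4.95 CPM in wt/null isotype, at 3.57, 16.3 and 3.07 CPM in wt/null anti-TNF, at 3.25, 8.91 and 2.87 CPM in the null/null libraries under isotype and at 6.97, 4.43 and 5.16 CPM in null/null anti-TNF. Its largest value was again in wt/null anti-TNF replicate 2. Il1a had, with Cxcl1, the largest estimate of the 10 genes for the antibody in wt/null mice, a log2 fold change of 1.31 ± 0.69 (estimate ± SE, 95% interval -0.23 to 2.84, edgeR unadjusted p = 0.087, adjusted p = 0.895). Without the 2 libraries that stand apart it was 0.11. Il1a also had the lowest interaction estimate of the 10, -1.17 ± 0.96 (95% interval -3.31 to 0.97, unadjusted p = 0.254, adjusted p = 1.00), which was -0.17 without them.

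Il1rn, the transcript of the receptor antagonist, did not share that pattern. It stood at 132, 96.8 and 230.4 CPM in wt/null isotype, at 115, 133 and 193 CPM in wt/null anti-TNF, at 191, 197 and 189 CPM in the null/null libraries under isotype and at 134, 133 and 223 CPM in null/null anti-TNF. Its SD was 4.15 CPM in null/null isotype, against 40.5 to 69.2 CPM in the other groups. The library titled 46 was the highest of the 3 in all 4 groups, which held for 2.68% of tested genes and for 1 of the 10 described here. The largest estimated fall among the 10 genes with the antibody in null/null mice was that of Il1rn, -0.24 ± 0.32 (95% interval -0.94 to 0.46, edgeR unadjusted p = 0.466, adjusted p = 0.949). Among libraries titled 40 alone, 2 a group, it was -0.51 (unadjusted p = 0.0108, adjusted p = 0.866), and Il1rn in null/null against wt/null under isotype was at 0.73 (unadjusted p = 0.00147, adjusted p = 1.00).

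The counts of Il1b over those of Il1rn in the same library were 1.34, 1.61 and 1.16 in wt/null isotype and 1.19, 1.97 and 1.44 in the null/null libraries given isotype. With the antibody to TNF they were 2.53, 5.01 and 1.20 in wt/null and 4.45, 2.46 and 0.986 in null/null. Under anti-TNF the 4 libraries titled 40 were each above the 6 isotype libraries, and the 2 titled 46 were not. On the log2 scale the ratio averaged 0.44 ± 0.23 in wt/null isotype, 1.31 ± 1.03 in wt/null anti-TNF, 0.59 ± 0.37 in null/null with isotype and 1.14 ± 1.10 in null/null anti-TNF (mean ± SD, 3 libraries each), so the SD under anti-TNF exceeded the difference between antibodies. As both counts come from 1 library, the scaling between libraries does not enter this ratio.

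**Figure D2:**
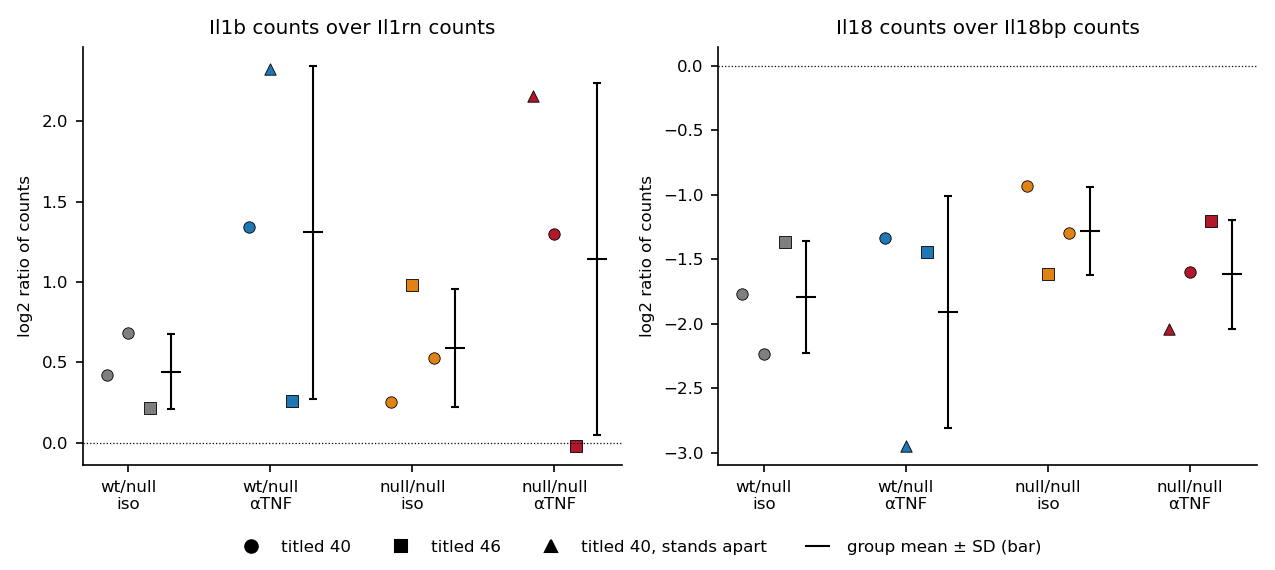
Log2 ratio of counts (vertical axes) of Il1b over Il1rn (left) and of Il18 over Il18bp (right) in each library by group, with the mean and SD of 3 libraries, symbols as in the plot of levels. Under anti-TNF the Il1b ratio spans -0.02 to 2.33, and the Il18 ratio is lowest, at -2.95, in wt/null anti-TNF replicate 2.

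Il18 was the steadiest of the 10 genes. It stood at 18.6, 16.8 and 18.0 CPM in wt/null isotype and at 23.0, 26.6 and 19.5 CPM in wt/null anti-TNF, groups that did not overlap. Il18 stood at 18.4, 22.5 and 18.2 CPM in the null/null libraries under isotype and at 24.1, 18.5 and 18.2 CPM in null/null anti-TNF, which did. Groups that did not overlap, with anti-TNF higher, were found in wt/null for 2 of the 10 genes, Il18 and Cxcl1, against 5.71% of tested genes, and groups with anti-TNF lower for 0 (4.45%). In null/null the antibody separated 0 of the 10 upward (3.87%) and 0 downward (4.55%), and under isotype the genotype separated 0 upward (4.31%) and 0 downward (3.65%). The log2 fold change of Il18 with the antibody in wt/null was 0.37 ± 0.14 (95% interval 0.06 to 0.68, edgeR unadjusted p = 0.0245, adjusted p = 0.895), and 0.25 without the 2 libraries that stand apart.

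Il18bp, whose protein neutralizes IL-18 and which IFN-γ is known to induce, stood at 63.6, 79.5 and 46.6 CPM in wt/null isotype and at 58.1, 205 and 52.9 CPM in wt/null anti-TNF. In null/null it stood at 35.1, 69.1 and 44.7 CPM under isotype and at 99.2, 56.3 and 41.9 CPM under anti-TNF. The value of 205 CPM belonged to wt/null anti-TNF replicate 2, which also held the most Ifng. In null/null the highest Il18bp, 99.2 CPM, was in replicate 1 under anti-TNF, the library with the next most Ifng. Whether Ifng bears on Il18bp in these libraries was not tested. Il18bp had the largest estimated fall of the 10 genes with loss of the receptor, -0.35 ± 0.53 under isotype (95% interval -1.53 to 0.84, edgeR unadjusted p = 0.528, adjusted p = 1.00) and -0.68 ± 0.53 under anti-TNF (95% interval -1.86 to 0.50, unadjusted p = 0.23, adjusted p = 1.00). The average over antibodies was -0.51 ± 0.38 (95% interval -1.35 to 0.32, unadjusted p = 0.202, adjusted p = 1.00). Without wt/null anti-TNF replicate 2 the estimate under anti-TNF was 0.25, the other direction, and the average -0.051. Counts of Il18 over Il18bp were 0.212 to 0.387 in wt/null isotype, 0.326 to 0.523 in null/null isotype, 0.129 to 0.396 in wt/null anti-TNF and 0.242 to 0.435 in null/null anti-TNF, so these ranges overlapped.

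Il6 was scarce, with 18 to 57 counts a library. It stood at 1.43, 1.07 and 0.623 CPM in wt/null isotype, at 2.01, 2.33 and 1.32 CPM in wt/null anti-TNF, at 0.976, 1.35 and 0.830 CPM in the null/null libraries under isotype and at 1.74, 1.36 and 1.29 CPM in null/null anti-TNF. The means were higher under anti-TNF in both genotypes, and the groups overlapped in each. The log2 fold change of Il6 with the antibody was 0.86 ± 0.36 in wt/null (95% interval 0.09 to 1.64, edgeR unadjusted p = 0.0321, adjusted p = 0.895). Averaged over genotype it was 0.67 ± 0.25 (95% interval 0.12 to 1.22, unadjusted p = 0.0207, adjusted p = 0.66), and 0.51 without the 2 libraries that stand apart.

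Il10, the anti-inflammatory cytokine of the set, stood at 10.7, 11.2 and 20.3 CPM in wt/null isotype, at 18.7, 44.3 and 11.6 CPM in wt/null anti-TNF, at 13.8, 21.5 and 11.8 CPM in the null/null libraries under isotype and at 29.2, 24.6 and 14.8 CPM in null/null anti-TNF. Its profile over the 12 libraries lay close to that of Il1b, with a root mean square distance of 0.25 between the log2 CPM profiles centred on their means, so the inflammatory and the anti-inflammatory transcript were high in the same libraries. Il10 had the largest estimated rise of the 10 genes with the antibody in null/null mice, 0.55 ± 0.48 (95% interval -0.53 to 1.62, edgeR unadjusted p = 0.283, adjusted p = 0.949). This Il10 estimate was 0.33 without null/null anti-TNF replicate 1 and 0.84 without null/null isotype replicate 2.

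Of the 4 groups, Cxcl1 had its lowest mean in wt/null isotype. It stood there at 7.51, 7.40 and 15.1 CPM, and at 16.0, 41.8 and 16.7 CPM in wt/null anti-TNF. Cxcl1 stood at 12.3, 27.6 and 13.8 CPM in the null/null libraries under isotype and at 30.3, 22.4 and 18.6 CPM in null/null anti-TNF. Both anti-TNF groups were above wt/null isotype without overlap. A higher null/null anti-TNF group with no overlap was found for Cxcl1 alone of the 10 genes, against 4.29% of tested genes, and a lower one for 0 of the 10 (3.61%). The log2 fold change of Cxcl1 was 1.31 ± 0.47 with the antibody in wt/null (95% interval 0.27 to 2.35, edgeR unadjusted p = 0.0187, adjusted p = 0.895). The estimate was 1.25 ± 0.47 for both perturbations against neither (95% interval 0.21 to 2.28, unadjusted p = 0.0233, adjusted p = 1.00). With loss of the receptor under isotype it was 0.83 ± 0.47 (95% interval -0.20 to 1.87, unadjusted p = 0.104, adjusted p = 1.00), the largest estimated rise of the 10 genes. These comparisons share the wt/null isotype libraries. The average over genotype of the antibody comparison was 0.86 ± 0.33 (95% interval 0.13 to 1.58, unadjusted p = 0.0246, adjusted p = 0.66). Without the 2 libraries that stand apart the antibody estimate of Cxcl1 in wt/null was 0.71 (unadjusted p = 0.114), the average 0.45 and that of both against neither 1.03. The Cxcl1 genotype estimate under isotype, whose libraries include neither, was 0.38 without null/null isotype replicate 2 and 1.25 without wt/null isotype replicate 3.

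Cxcl2 stood at 28.1, 28.4 and 72.3 CPM in wt/null isotype, at 52.6, 111 and 48.0 CPM in wt/null anti-TNF, at 50.2, 80.4 and 55.9 CPM in the null/null libraries under isotype and at 104, 73.1 and 58.9 CPM in null/null anti-TNF. It followed Cxcl1 closely, at a distance of 0.24 between profiles, but wt/null isotype replicate 3 put its groups in overlap. Counts of Cxcl2 over those of Cxcl1, a ratio chosen after its values were seen, were 3.74 to 4.80 in wt/null isotype and 2.64 to 3.28 in wt/null anti-TNF, which did not overlap. In null/null they were 2.91 to 4.09 under isotype and 3.16 to 3.44 under anti-TNF, which did.

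Cxcl3 differed from both. It was scarce, with 6 to 57 counts a library, and stood at 0.397, 0.599 and 1.97 CPM in wt/null isotype and at 0.335, 0.246 and 0.466 CPM in wt/null anti-TNF. In null/null Cxcl3 stood at 1.26, 1.62 and 0.553 CPM under isotype and at 1.74, 1.05 and 0.569 CPM under anti-TNF. Of the 12 libraries, wt/null anti-TNF replicate 2 had the most Cxcl1 and the least Cxcl3. The distance between the profiles of Cxcl1 and Cxcl3 was 1.05, and that between Cxcl2 and Cxcl3 0.87. Under anti-TNF the null/null libraries were above the wt/null libraries without overlap, as were those of 2.57% of tested genes, and 0 of the 10 genes were lower without overlap (2.58%). The log2 fold change of Cxcl3 was 1.67 ± 0.66 (95% interval 0.22 to 3.11, edgeR unadjusted p = 0.027, adjusted p = 1.00), and 1.01 without the 2 libraries that stand apart. With the antibody in wt/null Cxcl3 was at -1.51 ± 0.67 (95% interval -2.95 to -0.06, unadjusted p = 0.0426, adjusted p = 0.895), and at -0.50 without wt/null isotype replicate 3. The interaction estimate of 1.48 ± 0.90 (95% interval -0.47 to 3.43, unadjusted p = 0.124, adjusted p = 1.00) was the largest of the 10, and it was 0.48 without wt/null isotype replicate 3. Averaged over antibody the genotype estimate was 0.93 ± 0.45 (95% interval -0.05 to 1.90, unadjusted p = 0.061, adjusted p = 1.00). Averaged over genotype the antibody estimate was -0.77 ± 0.45 (95% interval -1.74 to 0.21, unadjusted p = 0.113, adjusted p = 0.665), and -0.26 without wt/null isotype replicate 3.

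**Figure D3:**
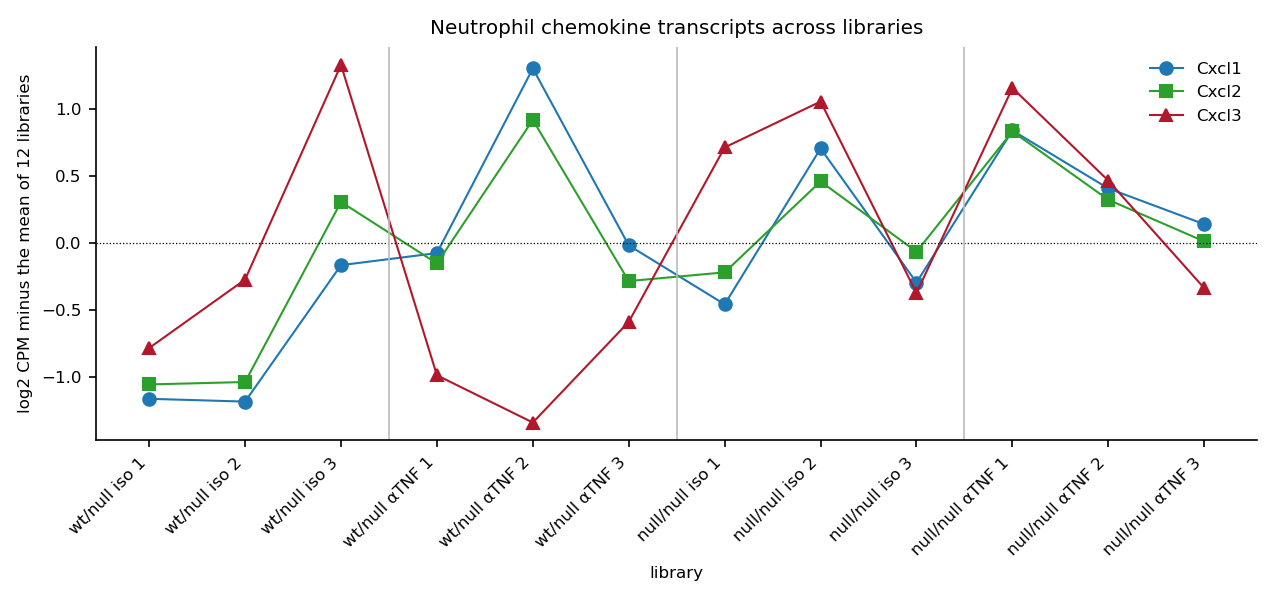
Log2 CPM of Cxcl1 (circles), Cxcl2 (squares) and Cxcl3 (triangles) in each library (horizontal axis, grouped by the vertical lines), minus the gene's mean over the 12 libraries. Cxcl1 and Cxcl2 run together at a distance of 0.24, while Cxcl3 is lowest in wt/null anti-TNF replicate 2, where both others are highest.

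Direction of the estimates differed between the settings of the comparisons. Estimates were higher with the antibody for 8 of the 10 genes in wt/null (50.8% of tested genes) and for 8 in null/null (51.3%), and higher with loss of the receptor under isotype for 9 (50.7%). Under anti-TNF loss of the receptor gave higher estimates for 3 (50.7%), and with both perturbations all 10 were higher than with neither (50.7%). The interaction estimate was above 0 for 1 of the 10, Cxcl3 (49.4%). The averages were higher for 7 with loss of the receptor (50.1%) and for 8 with the antibody (51.6%). The genes move together across libraries and the comparisons share groups, so these counts are not independent. Both libraries that stand apart were the highest of their group for 8 of the 10 genes, against 23.5% of tested genes. Without them the antibody estimates were higher for 8 genes in wt/null (50% of tested genes), with Il1rn among them in place of Il18bp. In null/null the antibody estimates were higher for 4 (50.4%), and those of genotype under anti-TNF for 7 (51.4%). Then 0 of the 10 had an unadjusted p below 0.05 with the antibody in wt/null (1.93%) or in null/null (1.75%). The count was 1, Cxcl1, between genotypes under isotype (3.01%), and 1, again Cxcl1, for both perturbations against neither (1.82%). It was 0 between genotypes under anti-TNF (1.12%).

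**Figure D4:**
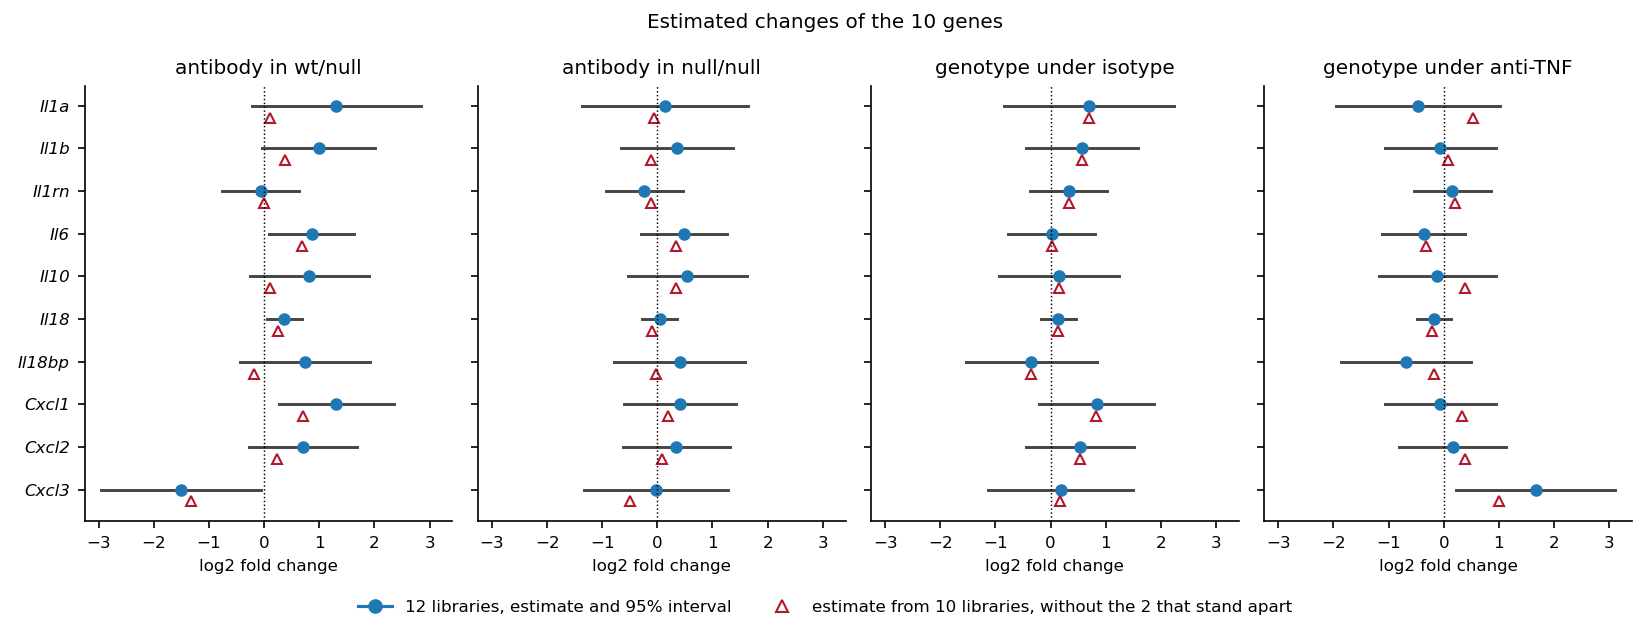
Log2 fold changes (horizontal axes) of the 10 genes in the 4 comparisons of single groups, as estimates with 95% intervals from 12 libraries (circles and lines) and as estimates from 10 libraries (open triangles). The interval excludes 0 for Il6, Il18, Cxcl1 and Cxcl3 with the antibody in wt/null and for Cxcl3 between genotypes under anti-TNF, and the triangles lie nearer 0 than the circles for most genes in both antibody panels.

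Levels also differed with the number in the title within groups. In null/null isotype the library titled 46 was the highest of the 3 for 10 of the 10 genes (30% of tested genes) and in wt/null isotype for 7 (35.9%), and it was the lowest for 0 (29%) and for 2 (35.3%). It was the highest in both for 7 genes, Il1a, Il1b, Il1rn, Il10, Cxcl1, Cxcl2 and Cxcl3, against 12.2% of tested genes. Under anti-TNF it was the lowest of the 3 for 7 genes in wt/null (33.1%) and for 8 in null/null (30.8%), and the highest for 2 (32.3%) and for 1 (30.9%). Libraries titled 40 alone, 2 a group, include both that stand apart, so each of these is 1 of the 2 in its anti-TNF group. For the antibody among libraries titled 40, 6 of the 10 genes had an unadjusted p below 0.05 in wt/null (4.34% of tested genes). The count was 3 in null/null (4.9%) and 7 averaged over genotype (11.3%). In this subset the count was 5 for both perturbations against neither (3.32%) and 1 for the interaction (0.561%). For genotype it was 2 under isotype (1.56%), 1 under anti-TNF (1.51%) and 2 averaged over antibody (2.65%). There the antibody estimate averaged over genotype was 1.48 for Cxcl1 (adjusted p = 0.406) and 1.30 for Il10 (adjusted p = 0.406), and edgeR called 0 of the 10 at an adjusted p below 0.05. Among the 4 libraries titled 46, 1 a group and therefore with no test, the anti-TNF library was above the isotype library for 4 of the 10 genes in wt/null (49.9% of tested genes) and for 1 in null/null, Il1rn (48.1%). The null/null library titled 46 was above the wt/null one for 8 genes under isotype (51.3%) and for 6 under anti-TNF (49.5%). With the title number as a block, the count at an unadjusted p below 0.05 was 3 with the antibody in wt/null (4.75% of tested genes), without Cxcl3, 0 in null/null (4.17%) and 2 averaged over genotype (8.18%). For genotype it was 1 under isotype, Il1rn (2.16%), 1 under anti-TNF, Cxcl3 (2.24%), and 2 averaged over antibody, Il1rn and Cxcl3 (2.83%). It was 1 for both perturbations against neither (2.39%) and 0 for the interaction (1.71%).

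Immediate early and dissociation stress genes, which enzymatic digestion of tissue can induce, also differed in level between libraries. The sum of the 12 genes of that list was 5214, 5423 and 8205 CPM in wt/null isotype, 6145, 11139 and 7306 CPM in wt/null anti-TNF, 5708, 7846 and 6569 CPM in the null/null libraries under isotype and 8178, 8475 and 5793 CPM in null/null anti-TNF. It was highest in wt/null anti-TNF replicate 2, and within each isotype group in the library titled 46. Both libraries that stand apart were the highest of their group for 8 of the 10 genes (23.5% of tested genes). In null/null anti-TNF, however, the sum was highest in replicate 2 and not in replicate 1, which stands apart. In wt/null anti-TNF the sum was lowest in replicate 1, while the library titled 46 was lowest for 7 of the 10 genes (33.1%). The 12 tested genes of that list had higher estimates with the antibody averaged over genotype in 12 cases (51.6% of tested genes), and edgeR called 0. The part of digestion, of the cell type markers above or of the title number in the results was not tested.

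Of the tested genes whose mean log2 CPM reached 2, those whose centred log2 CPM profile lay nearest to Cxcl1 were Nr4a3 at a distance of 0.24, Cxcl2 at 0.24 and Maff at 0.25, where the median over 9961 genes was 0.73. Nearest to Il1a were Cxcl1 at 0.32, the immediate early gene Fosb at 0.35 and Grasp at 0.37. Nearest to Cxcl3 were Vcan, a matrix proteoglycan, at 0.52, the cystine transporter gene Slc7a11 at 0.61 and the matricellular gene Thbs1 at 0.62, where the median was 0.88. These 3 profiles were taken because their SDs of log2 CPM were the highest of the 10, and all libraries and the scaling were shared.

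The rest of the pathway was described by fixed lists, of which edgeR called 0 members in any direction in the averages of genotype and antibody. Of all tested genes, 51.6% had higher estimates with the antibody averaged over genotype and 50.1% with loss of the receptor. The list counts come from all 12 libraries, with the 2 that stand apart included. Of the 14 IL-1 and IL-18 receptor and signalling genes, 10 had higher estimates with the antibody averaged over genotype (median log2 fold change 0.08, against 0.01 for all tested genes), and Il18rap, a chain of the IL-18 receptor, was at 0.91 (edgeR unadjusted p = 0.0111, adjusted p = 0.66). With loss of the receptor 9 of the 14 were higher (median 0.05, against 0.00). Of the 12 inflammasome genes 11 were higher with the antibody (median 0.08), among them the DNA sensor gene Aim2 at 0.34 (unadjusted p = 0.0241, adjusted p = 0.66). With loss of the receptor 8 of the 12 were lower, and Casp1, which encodes the enzyme that cuts IL-1β and IL-18, was at -0.25 (unadjusted p = 0.0096, adjusted p = 1.00).

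Of the 10 IL-6 and IL-10 receptor and signalling genes 9 were higher with the antibody (median 0.11), and Il10ra, a chain of the IL-10 receptor, was at 0.19 (edgeR unadjusted p = 0.0488, adjusted p = 0.66). With loss of the receptor 5 were higher, and Socs3, the feedback inhibitor of IL-6 signalling, was at 0.47 (unadjusted p = 0.0645, adjusted p = 1.00). Of 10 regulators of cytokine messages and NF-κB feedback, 8 were higher with the antibody (median 0.24) and 7 with loss of the receptor (median 0.04). Nfkbiz, a cofactor that NF-κB needs at the Il6 gene, was at 0.66 with the antibody (unadjusted p = 0.0457, adjusted p = 0.66). Among 8 neutrophil chemokine receptors and other attractants 4 were tested, and Ppbp, another ligand of CXCR2, was at 0.76 with loss of the receptor (unadjusted p = 0.0335, adjusted p = 1.00). Cxcl15 had 0 counts in all libraries. Tnf itself stood at 20.7 to 27.7 CPM in wt/null isotype, 24.1 to 105 in wt/null anti-TNF, 24.0 to 34.3 in null/null isotype and 25.0 to 42.1 in null/null anti-TNF, its highest value being in wt/null anti-TNF replicate 2.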

How the data were processed

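RNA of 12 libraries was analysed from a deposited table of counts per gene symbol, not normalized by the authors, with whole values and library sums between 23.2 and 29.9 M. Per the submitters' processing notes, bcl2fastq 2.20, STAR, Bowtie and the build mm10 were used, without stated roles, and the counting tool, annotation and strand setting are not given in the sources used here. Per the labels' protocols the kit was stranded and reads were paired. The 12 columns were matched by title. Replicates were numbered in listed order and pair nothing. Genes were kept by filterByExpr (12981 of 24421, with at least 99.97% of each library's counts), scaled by TMM and fitted on 4 group means with robust quasi-likelihood models in edgeR 4.0.16 (R 4.3.3), with two-sided tests and Benjamini-Hochberg adjustment over all genes. The same code was tested on simulated data. No 2 libraries of a group agreed within sampling noise, as chi-square per degree of freedom was at least 11.0. Levels are CPM, and log2 CPM used a prior count of 2. Lengths are those of the longest coding GENCODE M21 transcript. Alternatives were DESeq2 1.42.0, other scaling and filters, the title number as a block or 40 alone, and libraries left out. The values of the libraries titled 46 alone were added after seeing the data. Fold changes were printed for genes with an unadjusted p below 0.05 and for the largest estimated rise and fall in each comparison, the genes of each list with the smallest p in the 2 averages, and the 3 nearest profiles of the 3 genes with the widest spread. The 2 libraries that stand apart were set by name and not by a rule. Where they held the highest values of their group, lower antibody estimates without them were built in. The genes and lists were chosen with earlier results of these data known.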

Additional observations from a re-analysis of the deposited data

How the results depend on the processing

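Under each of the 7 other settings and with each of the 12 libraries left out in turn, 0 of the 10 genes were called in each of the 8 comparisons. The printed fold changes kept their direction and their side of the threshold except for 2. Leaving out 1 library at a time moved Il18bp between genotypes under anti-TNF from -1.10 to 0.25 and the Il1a interaction from -1.70 to 0.032, with the positive values in each case without wt/null anti-TNF replicate 2. The Cxcl1 estimate for the antibody in wt/null ranged from 0.71 without that library to 1.73 without wt/null isotype replicate 3, Il1a from 0.11 to 1.85 and Cxcl3 from -1.88 to -0.50. Leaving out 1 library also moved Il18bp under isotype from -0.66 to -0.16, Il1rn with the antibody in null/null from -0.53 to -0.11, Cxcl1 with the antibody averaged over genotype from 0.56 to 1.09 and Cxcl3 with genotype averaged over antibody from 0.69 to 1.43. Over all genes DESeq2 called 14 with the antibody averaged over genotype where edgeR called 0, 4 against 1 with genotype averaged over antibody, and 2 against 1 with genotype under either antibody. For the averaged antibody comparison, 2 of the 10 genes had an unadjusted p below 0.05 with all libraries (7.31% of tested genes). The count was 7 with the 2 libraries a group titled 40 (11.3%). It was 0 without the 2 libraries that stand apart (2.66%), both of which are titled 40. No paired analysis was possible because the labels give no replicate numbers. The counts of Cxcl3 were the lowest, down to 6 in a library. The cause of these shifts was not tested.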
